A study of Mus musculus with 12 samples.

Results

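The 8 genes described here are the 7 globin genes of mouse red blood cells, Hba-x, Hba-a1, Hba-a2, Hbb-y, Hbb-bh1, Hbb-bs and Hbb-bt, and Alas2, the erythroid enzyme that starts haem synthesis. They were taken by symbol from the 54735 gene symbols listed for each of 12 libraries, and all 8 were found. The question was how embryonic-type and adult-type globin RNA stood to each other in the embryonic pallium and whether either differed between genotypes. RNA came from the pallium, the dorsal telencephalon that forms the cortex, of mouse embryos at E13.5 (strain labelled C57/Bl6). It was made into stranded total RNA libraries, 4 per genotype.

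Every group carried Emx1-Cre, which acts in the progenitors of the pallium. The control genotype was Rnu11wt/flx::Trp53wt/wt, so controls had 1 floxed allele of Rnu11, the gene of the U11 RNA that the minor spliceosome needs. The Rnu11 cKO (called cKO) was Rnu11flx/flx::Trp53wt/wt, with wild-type Trp53, the gene of p53. The dKO was Rnu11flx/flx::Trp53flx/flx. Values are TPM, a length-scaled transcript level in which every library sums to 1000000, so levels of different genes can be set side by side. TPM keeps no record of sequencing depth, which is therefore unknown here, and counting error cannot be computed. Nothing in the labels says whether each library is a separate embryo or pool, so p-values measure the spread between these libraries.

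Haemoglobin is built from alpha-type and beta-type globin chains, each with a haem group. The first red cells of the mouse embryo arise in the yolk sac, circulate with their nuclei and make embryonic-type chains, and they raise their share of adult-type alpha chains as they mature. Cells from the fetal liver, which make adult-type chains, then replace them in the blood. Red cells are not made in the brain, and dissected brain tissue holds the blood of its vessels. Strains of laboratory mice carry different forms of the adult beta-globin genes; the form named Hbb-bs and Hbb-bt is that of C57BL/6.

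The globin genes lie in 2 clusters, in which the embryonic-type genes come first in the direction of transcription. In GENCODE M21 (build GRCm38, the mm10 of the submitters' processing notes), the beta-type genes are on the minus strand of chromosome 7, with Hbb-y at chr7:103851749-103853216, Hbb-bh1 at chr7:103841637-103843164, Hbb-bs at chr7:103826534-103828096 and Hbb-bt at chr7:103812524-103813996. The alpha-type genes are on the plus strand of chromosome 11, with Hba-x at chr11:32276400-32278116, Hba-a1 at chr11:32283511-32284465 and Hba-a2 at chr11:32296489-32297298. Alas2 spans chrX:150547375-150570638 on the plus strand.

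How far reads can tell these genes apart sets what their values mean, so a stretch of 60 coding bases of exon 3 is shown for each globin, from GENCODE M21 transcripts. Capitals mark the bases that differ from Hbb-bs in the beta-type genes and from Hba-a1 in the alpha-type genes, and positions count from 1 at the A of the start codon. The beta-type stretches are coding positions 358 to 417 and the alpha-type stretches are positions 322 to 381.
Hbb-bs (chr7:103826692-103826751, minus strand): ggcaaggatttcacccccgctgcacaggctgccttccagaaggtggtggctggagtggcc
Hbb-bt (chr7:103812683-103812742, minus strand): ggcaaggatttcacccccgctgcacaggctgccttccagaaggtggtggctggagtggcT
Hbb-y (chr7:103851901-103851960, minus strand): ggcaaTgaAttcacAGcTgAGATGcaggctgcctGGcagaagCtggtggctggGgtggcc
Hbb-bh1 (chr7:103841779-103841838, minus strand): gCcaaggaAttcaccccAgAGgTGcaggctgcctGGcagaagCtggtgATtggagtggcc
Hba-a1 (chr11:32284284-32284343, plus strand): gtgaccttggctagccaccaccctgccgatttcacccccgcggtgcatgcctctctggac
Hba-a2 (chr11:32297101-32297160, plus strand): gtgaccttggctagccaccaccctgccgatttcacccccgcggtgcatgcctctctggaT
Hba-x (chr11:32277901-32277960, plus strand): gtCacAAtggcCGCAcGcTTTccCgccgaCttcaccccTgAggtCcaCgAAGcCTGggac

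Hbb-bt differs from Hbb-bs by 1 of 444 coding bases (C417T, Hbb-bs base first), and Hba-a2 differs from Hba-a1 by 1 of 429 (C381T, Hba-a1 base first). The embryonic genes stand far apart from their adult partners, since 330 of 444 bases (74.3%) of Hbb-y matched Hbb-bs and 266 of 429 (62.0%) of Hba-x matched Hba-a1. Over whole transcripts, 65.8% of the 50-base windows of Hbb-bs also occurred in Hbb-bt, and 58.3% of those of Hbb-bt in Hbb-bs. The shares were 67.5% for Hba-a1 in Hba-a2 and 86.9% for Hba-a2 in Hba-a1. No 50-base coding window was shared between an embryonic and an adult globin gene. How reads shared by near-identical genes were counted is not given in the sources used here, so the split between Hbb-bs and Hbb-bt, and between Hba-a1 and Hba-a2, is uncertain. If such reads were left out, the sums of the pairs are low as well, and the shares that use them are moved.

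Hbb-y, the embryonic epsilon-type gene of the beta cluster, had the highest level of the 8 genes in every library. It stood at 1912, 1209.9, 1557 and 1376 TPM in controls 1 to 4, at 1440.02, 1896, 1807 and 1795 in cKO 1 to 4, and at 1930.3, 1191, 1408 and 1501 in dKO 1 to 4. The 3 genotypes overlapped, and the highest library of each lay between 1896 and 1930.3 TPM. Hbb-bh1, the other embryonic beta-type gene, stood at 34.1, 29.6, 36.7 and 25.4 TPM in controls, 33.1, 26.3, 38.0 and 47.9 in cKO, and 35.2, 15.2, 27.8 and 39.9 in dKO. Its groups overlapped, with the lowest value in dKO 2 and the highest in cKO 4. Hbb-y exceeded Hbb-bh1 by 37.5 to 78.4 times within a library.

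Hbb-bs, the more abundant adult beta-type gene, stood at 489, 612, 592 and 314 TPM in controls, 521, 812, 592 and 686 in cKO, and 361, 457, 461 and 501 in dKO. All dKO libraries lay below all cKO libraries, and both mutants overlapped control. Hbb-bt, the minor adult beta-type gene, stood at 48.6, 59.0, 66.2 and 33.9 TPM in controls, 54.3, 74.9, 52.7 and 74.0 in cKO, and 188, 188, 132 and 47.4 in dKO. The libraries of dKO 1, 2 and 3 stood above every other library, while dKO 4 lay inside the range of the controls.

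Hba-x, the embryonic zeta-type alpha gene, stood at 61.2, 17.9, 21.2 and 26.5 TPM in controls, 36.1, 35.3, 39.1 and 40.5 in cKO, and 27.9, 21.5, 38.6 and 49.9 in dKO. Control 1 was the highest library of all, and the other 3 controls lay below every cKO library. Hba-a1, an adult alpha gene, stood at 285, 158, 167 and 139.6 TPM in controls, 204, 294, 252 and 237 in cKO, and 152, 172, 229 and 264 in dKO. Hba-a2, its near-identical neighbour, stood at 278, 173, 176 and 134 TPM in controls, 214, 325, 264 and 240.2 in cKO, and 161, 182, 256 and 269 in dKO. In both genes control 1 was high and the other 3 controls lay below all cKO libraries. Alas2 stood at 3.85, 3.54, 2.22 and 2.05 TPM in controls, 2.98, 4.44, 3.86 and 4.44 in cKO, and 1.99, 2.53, 3.37 and 3.68 in dKO. Its groups overlapped in every comparison.

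**Figure D1:**
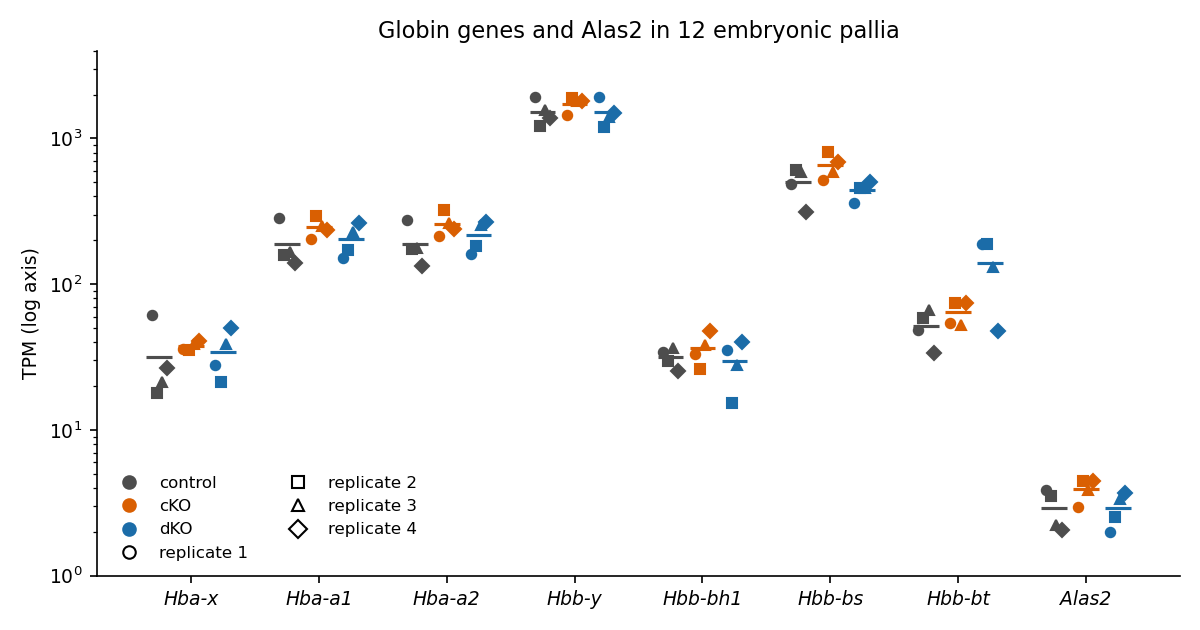
TPM on a log axis of the 7 globin genes and Alas2, with 1 point per library, marker shapes for replicate numbers, colours for genotypes and a line at each group mean (n = 4 each). Hbb-y lies at the top between 1191 and 1930.3 TPM, Alas2 at the bottom between 1.99 and 4.44, and Hbb-bt separates dKO 1, 2 and 3 from the other 9 libraries.

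By their mean over the 12 libraries the genes ranked Hbb-y (1585 TPM), Hbb-bs (533), Hba-a2 (223), Hba-a1 (213), Hbb-bt (84.9), Hba-x (34.6), Hbb-bh1 (32.4) and Alas2 (3.25). Within a library, Hbb-y exceeded Hbb-bs in 12 of 12 libraries, by 1.98 to 5.35 times, and their ranges did not overlap. Hbb-bs exceeded Hba-a2 in 12 of 12. Hba-a2 and Hba-a1 were not separated beyond their spread: Hba-a2 was higher in 10 of 12 and its ratio to Hba-a1 ran from 0.958 to 1.12. Hba-x and Hbb-bh1, the lower embryonic genes, were likewise not separated, with Hba-x higher in 8 of 12. Hba-a1 exceeded Hbb-bt, and Hbb-bt exceeded Hba-x, in 10 of 12 libraries each. Hbb-bh1 exceeded Alas2 in 12 of 12 without overlap.

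The beta-type and alpha-type clusters differed in how much of their RNA was embryonic. Hbb-y and Hbb-bh1 together made 73.5% ± 7.05 of beta-type globin TPM in the control libraries, against 71.3% ± 2.36 in those of cKO and 72.0% ± 5.46 in those of dKO (SD, n = 4 per genotype). Hba-x made 7.40% ± 2.28 of alpha-type globin TPM in the control libraries, against 7.06% ± 1.18 for cKO and 7.46% ± 1.26 for dKO (SD, n = 4 per genotype). These shares are ratios within a library, so scaling of the library does not move them, and they are given as a description with no test. In both shares the genotype means differed from each other by less than the SD within control. The lowest beta-type share was 64.9% (control 2) and the lowest alpha-type share 5.11%, in the same library. Control 4, at 80.1%, had the highest beta-type share and control 1, at 9.81%, the highest alpha-type share.

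**Figure D2:**
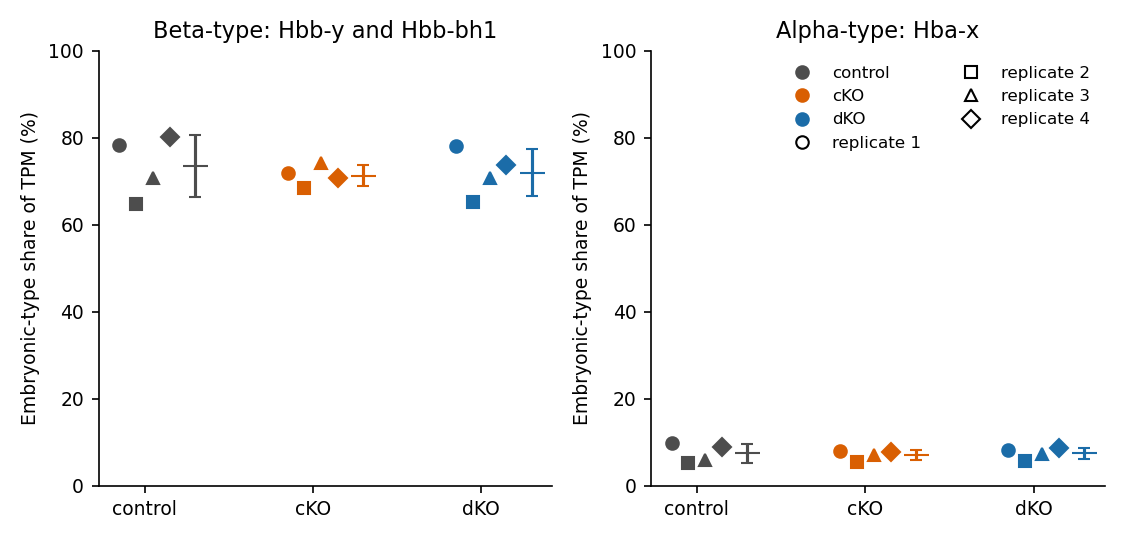
Embryonic-type share of beta-type globin TPM (left, Hbb-y and Hbb-bh1 of all 4 beta-type genes) and of alpha-type globin TPM (right, Hba-x of all 3 alpha-type genes), in percent, 1 point per library with the mean and SD of each genotype beside it. The beta-type share lies between 64.9% and 80.1% and the alpha-type share between 5.11% and 9.81%, and the genotypes overlap in both.

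The 7 globins summed to 2048 to 3464 TPM, or 0.205% to 0.346% of a library. Alpha-type TPM was the smaller part of that sum. Its mean share was 16.0% ± 2.78 for control, 18.0% ± 0.984 for cKO and 17.8% ± 4.43 for dKO (SD, n = 4 per genotype). The widest spread was among the dKO libraries, where dKO 1 had the lowest alpha-type share of all (11.9%) and dKO 4 the highest (21.8%). Beta-type TPM exceeded alpha-type TPM by 3.58 to 7.39 times in the 12 libraries. Most of the alpha-type sum came from Hba-a1 and Hba-a2, which share 67.5% and 86.9% of their transcript windows with each other. Most of the beta-type sum came from Hbb-y, which shares no coding window with an adult globin gene. How far the counting of shared reads moved this ratio and the alpha-type share was not tested.

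The adult pairs behaved differently. Hba-a2 and Hba-a1 stood near equal levels in all libraries, whereas Hbb-bt over Hbb-bs was 0.0890 to 0.112 in the 9 libraries other than dKO 1, 2 and 3 and 0.521, 0.412 and 0.286 in those 3. The dKO 4 library, at 0.0946, was inside the range of the 8 control and cKO libraries. Hbb-bt made 9.42% ± 0.595 of adult beta-type TPM for control, 8.95% ± 0.759 for cKO and 23.6% ± 11.1 for dKO (SD, n = 4 per genotype), with 34.3%, 29.2%, 22.2% and 8.64% in dKO 1 to 4. This share was singled out after its values were seen and has no test. The sum of Hbb-bs and Hbb-bt was 549, 645, 593 and 549 TPM in dKO 1 to 4, inside the control range of 348 to 671. The strain label is the same for all libraries, but it does not give the form of the adult beta-globin genes in each of them. Hbb-b1 and Hbb-b2, the adult beta-globin symbols of other strains, were not analysed here. Whether the form of these genes or the counting of shared reads has a part in the ratio was not tested.

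**Figure D3:**
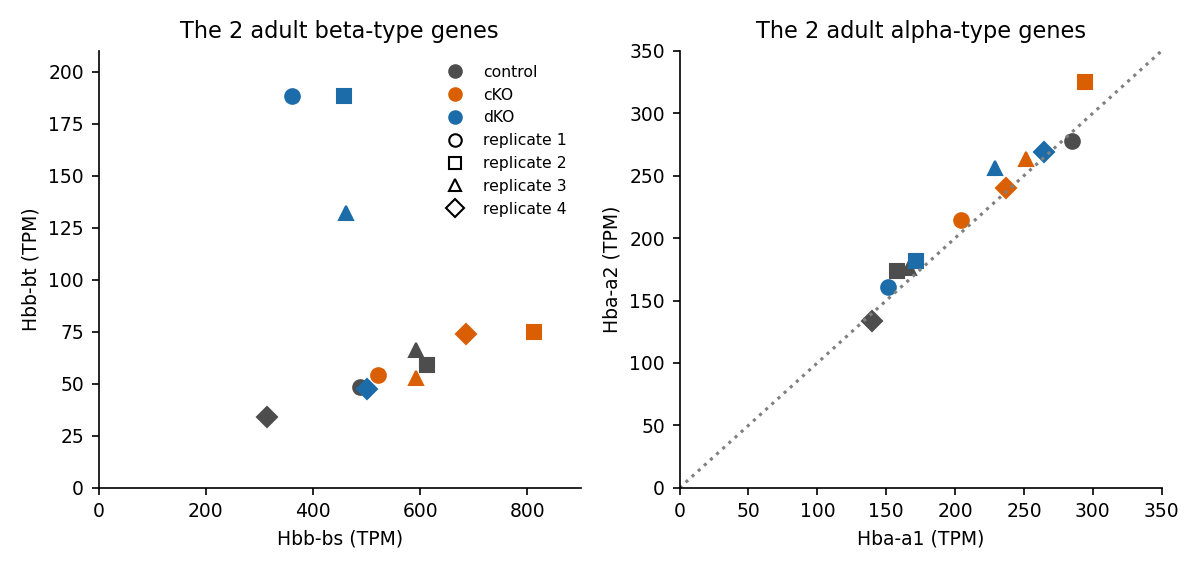
Left, TPM of Hbb-bt against Hbb-bs; right, TPM of Hba-a2 against Hba-a1, with a dotted line at equal values; 1 point per library, coloured by genotype. On the left dKO 1, 2 and 3 stand above the other 9 libraries, whose ratio of Hbb-bt to Hbb-bs is 0.0890 to 0.112, and on the right all libraries lie near the dotted line, with ratios from 0.958 to 1.12.

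For the comparison of genotypes, log2(TPM + 1) was fitted with limma for the 11764 genes whose mean reached 1 TPM, which include all 8 genes. A gene was called where its Benjamini-Hochberg adjusted p fell under 0.05. Fold changes on this scale understate the change of low genes such as Alas2. As checks of the labels, Rnu11 was 521 to 724 TPM in controls and 115 to 199 in both mutants, and Trp53 was 2.63 to 6.37 TPM in controls and 0.920 to 1.49 in dKO. Most called genes were higher in cKO than in control (34.3% of tested genes higher, 1.09% lower) and lower in dKO than in cKO (0.612% higher, 38.8% lower), while 1.79% of tested genes rose and 3.4% fell in dKO against control. The median log2 change of all tested genes was 0.25, -0.01 and -0.26 for cKO against control, dKO against control and dKO against cKO. Changes of the globins are therefore also given after median-shift centring, which shifts each library by its median difference from the mean library. Of the called genes, 96.9%, 34.4% and 1.55% were higher in the 3 comparisons in that order, against 55.7%, 44.4% and 35.4% after centring, 54.7%, 44.9% and 37.8% after quantile normalization, and 87.0%, 59.8% and 14.6% after protein-coding rescaling, in which the protein-coding TPM without the globins was made equal.

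Between cKO and control, limma called 0 of the 8 genes, where 35.4% of all tested genes were called. None had an unadjusted p under 0.05 either (48.3% of all genes) or groups that did not overlap (33.7%). All 8 log2 changes were positive, with a median of 0.38 beside 0.25 for all tested genes. Hba-a2 had the largest, at 0.49 ± 0.228 (SE; 95% interval -0.01 to 0.98; limma adjusted p = 0.107), then Hba-a1 at 0.44 ± 0.228 (95% interval -0.05 to 0.93; limma adjusted p = 0.141). Hba-x and Hbb-bs each had a log2 difference of 0.41, with limma adjusted p-values of 0.322 and 0.136. The log2 change was 0.35 for Alas2, 0.32 for Hbb-bt, 0.21 for Hbb-y and 0.18 for Hbb-bh1 (limma adjusted p from 0.142 to 0.582). After centring, the median of the 8 was 0.13, and Hbb-y and Hbb-bh1 turned to -0.04 and -0.07.

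These cKO values depended on control 1, the library with the highest alpha-type levels among controls. Without it, limma called Hba-a1 (log2 change 0.66, adjusted p = 0.0236), Hba-a2 (0.69, adjusted p = 0.0268) and Hba-x (0.78, adjusted p = 0.0279), where 33.7% of all genes were called. The 5 other genes were not called. Control 1 was singled out after the values were seen, and leaving out the highest control favours a call of higher levels in cKO. Over the 8 fits that each left out 1 library, the limma adjusted p reached 0.313 for Hba-a1, 0.268 for Hba-a2 and 0.661 for Hba-x. Sample weights in limma called Hba-a1 (0.71), Hba-a2 (0.81), Hbb-bs (0.75) and Alas2 (0.56), with adjusted p-values from 0.00706 to 0.0171, where 51.8% of all genes were called.

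Between dKO and control, limma again called 0 of the 8, with 5.19% of all tested genes called. Hbb-bt alone had an unadjusted p under 0.05 (20.1% of all genes), and for none of the 8 did the groups fail to overlap (13.6% of all genes). Hbb-bt had a mean of 139 TPM in dKO and 51.9 in control, a difference of 1.26 ± 0.372 on the log2 scale (SE; 95% interval 0.45 to 2.07; limma adjusted p = 0.0726). Hbb-bt was called without dKO 4, at 1.71 (limma adjusted p = 0.00262), where 3.62% of all genes were. That library, the lowest of dKO, was singled out after the values were seen, and leaving it out favours a call. Over the 8 fits that each left out 1 library, Hbb-bt had a limma adjusted p from 0.00262 to 0.191. It was also called after protein-coding rescaling (1.33, limma adjusted p = 0.0408; 9.2% of all genes) and after quantile normalization (1.26, limma adjusted p = 0.0411; 8.75% of all genes). The log2 differences of the other 7 ran from -0.16 (Hbb-bh1) to 0.22 (Hba-x), with limma adjusted p-values from 0.684 to 1. Hbb-y, the most abundant, stood at -0.01 with a 95% interval from -0.38 to 0.37. The median of the 8 was 0.07, or 0.09 after centring.

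Between dKO and cKO, limma called 0 of the 8, with 39.4% of all tested genes called. An unadjusted p under 0.05 was found for Hbb-bt and Hbb-bs (50.9% of all genes). Hbb-bs was the 1 gene whose groups did not overlap, and it was lower in dKO; 33.2% of all genes did not overlap and 32.8% did so with dKO lower. It had a mean of 653 TPM in cKO and 445 in dKO, a difference of -0.54 ± 0.208 on the log2 scale (SE; 95% interval -0.99 to -0.09; limma adjusted p = 0.0551). The difference was -0.27 after centring (limma adjusted p = 0.454) and -0.32 after protein-coding rescaling (limma adjusted p = 0.351). Hbb-bs was called when those 2 groups were fitted alone (limma adjusted p = 0.0345; 31.9% of all genes) and without cKO 1 (-0.64, limma adjusted p = 0.0392; 41.2% of all genes). Hbb-bt had the opposite sign, with a mean of 64.0 TPM in cKO and 139 in dKO, a difference of 0.94 ± 0.372 on the log2 scale (SE; limma adjusted p = 0.0609). Without dKO 4 it was called, at 1.39 (limma adjusted p = 0.00265, with 30.7% of all genes called). Both left-out libraries, cKO 1 and dKO 4, were singled out after the values were seen, which favours a call. Over the 8 fits that each left out 1 library, the limma adjusted p ran from 0.00265 to 0.153 for Hbb-bt. For Hbb-bs it ran from 0.0392 to 0.152. The log2 differences of the remaining 6 ran from -0.35 (Alas2) to -0.19 (Hba-x). The median of the 8 was -0.29, or -0.02 after centring, and Hbb-y and Hba-x were 0.05 and 0.07 after centring.

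**Figure D4:**
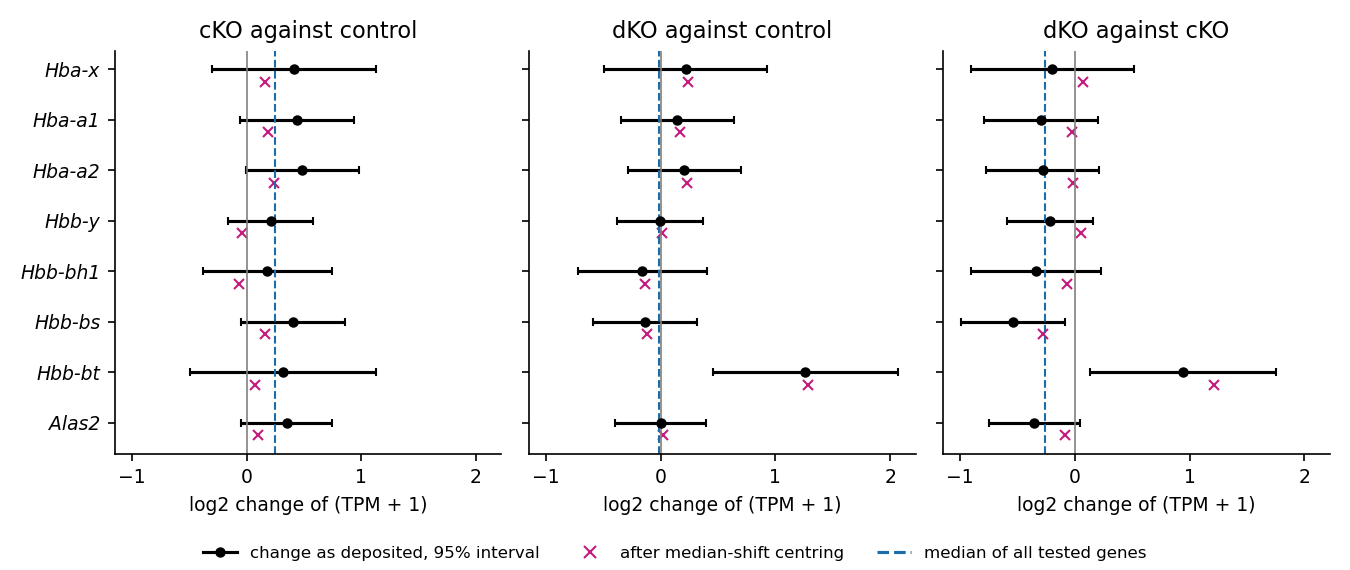
Change of each gene on the log2(TPM + 1) scale in the 3 comparisons: points with 95% intervals are the values as deposited, crosses the values after median-shift centring, and dashed lines the median of all 11764 tested genes. Hbb-bt lies at 1.26 and 0.94 in the comparisons with dKO, Hbb-bs at -0.54 against cKO, and every other interval includes 0.

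The comparisons share groups, so a library that is high or low in one enters another: control 1 enters both comparisons with control, and the cKO libraries enter both comparisons with cKO. In bulk tissue, fewer red cells and less globin RNA per red cell cannot be told apart, for all values above.

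Alas2 lies on another chromosome than the globins and makes a different kind of protein, so its relation to each globin across libraries was measured after subtracting genotype means. Its correlation was highest with the adult alpha genes. For Hba-a1, Pearson's r was 0.816 and Spearman's rho 0.867, and for Hba-a2 they were 0.839 and 0.860 (12 libraries). The exact permutation p within genotypes was 0.00326 for the r of Hba-a1 and 0.00282 for that of Hba-a2, each 0.0114 after Benjamini-Hochberg adjustment over 7 globins; for both values of rho the adjusted exact permutation p was 0.00709. For Hbb-bs r was 0.647 and rho 0.573 (exact permutation p = 0.0441, adjusted 0.103, and for rho 0.0775, adjusted 0.181), and for Hba-x r was 0.525 and rho 0.476 (adjusted exact permutation p = 0.308 and 0.385). The r was 0.198 for Hbb-bh1, 0.107 for Hbb-y and -0.256 for Hbb-bt, with rho of 0.203, 0.0350 and -0.273 and adjusted exact permutation p from 0.649 to 0.936.

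With fewer libraries the r of the adult alpha genes was at least 0.711, and the adjusted exact permutation p was not under 0.05 without control 1, without control 4, or without both control 4 and dKO 1. Without dKO 1 and control 4, which lie farthest from the median of Alas2, r was 0.711 for Hba-a1 and 0.726 for Hba-a2, and the adjusted exact permutation p was 0.2795 for both, with 864 arrangements in place of 13824. With control 1 left out, r was 0.787 and 0.802 and the adjusted exact permutation p 0.0679 for both, and with control 4 left out r was 0.779 and 0.796 and the adjusted p 0.104. With control 3 left out, the r of Hbb-bs was 0.859 and its adjusted exact permutation p 0.0182. The difference between the correlations of Alas2 with alpha-type and with beta-type genes was not tested.

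**Figure D5:**
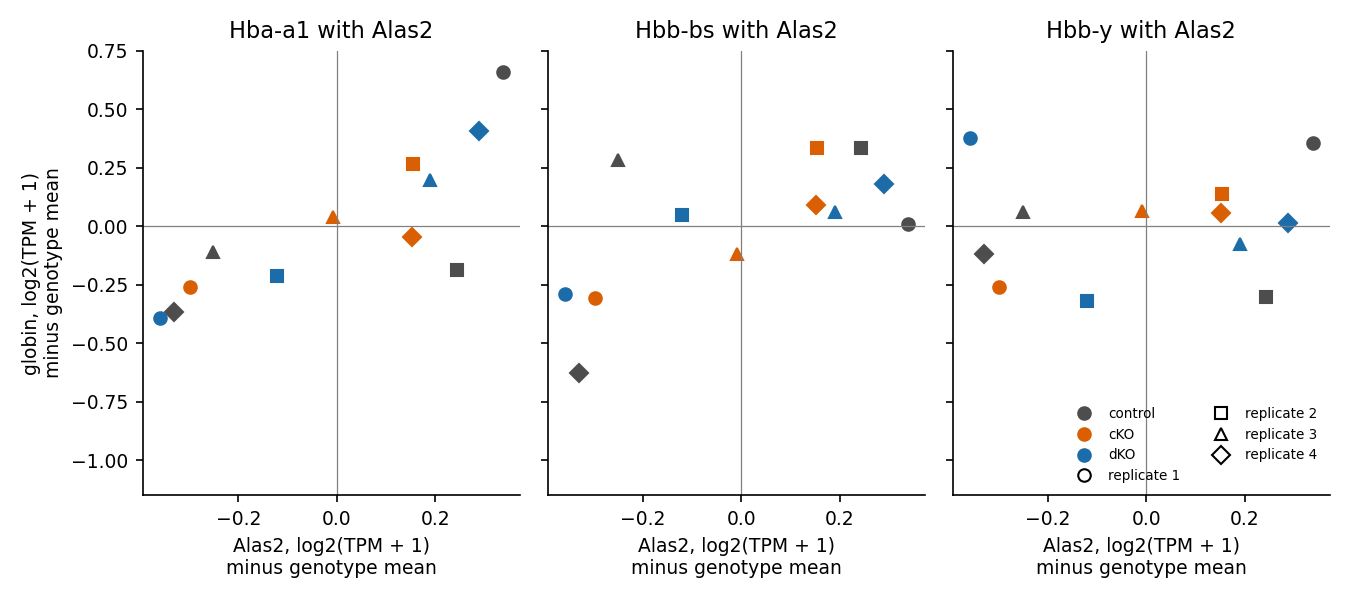
Hba-a1, Hbb-bs and Hbb-y against Alas2 in 12 libraries, each as log2(TPM + 1) minus the genotype mean, coloured by genotype. Pearson's r is 0.816, 0.647 and 0.107 from left to right, and control 4 and dKO 1 are at the low end of Alas2 in each panel.

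The levels of other red cell genes covered a wide range. Of 27 measured red cell membrane and enzyme genes, 20 had a mean under 1 TPM over the 12 libraries, beside 78.5% of all symbols. Of 15 erythroid transcription factors, 9 did, among them Gata1 (0.0852 TPM) and Klf1 (0.183 TPM), the factors that drive globin genes in red cell precursors. Slc4a1, the anion exchanger of the red cell membrane, averaged 1.66 TPM and Epb41, protein 4.1 of the membrane skeleton, 19.4 TPM. Prdx2, a peroxidase made in many tissues, averaged 109 TPM, and Ldb1 and Sox6, factors also made outside the blood, 43.9 and 16.5 TPM. Among the globins, Hbb-bh1 averaged 32.4 TPM.

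Of the erythroid factors, 6 passed the mean of 1 TPM. Lmo2, an adaptor protein of blood and vessel cells, rose in cKO against control (0.61 ± 0.183 SE; limma adjusted p = 0.0238). Bcl11a, which represses embryonic-type beta-globin genes in red cell precursors and is also made by cortical neurons, fell by 0.57 in dKO against cKO (limma adjusted p = 0.0248). Neither was called after centring. As deposited, 34.3% of all genes rose in cKO against control and 38.8% fell in dKO against cKO. No other called change was found in these 6, in any comparison as deposited. After centring Myb, a factor of blood progenitors, was called lower in cKO against control (-0.50; limma adjusted p = 0.0234), where 2.96% of all genes were.

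Of 15 tested genes of haem synthesis and iron handling, 7 rose and 0 fell in cKO against control (34.3% and 1.09% of all genes), and 0 rose and 6 fell in dKO against cKO (38.8% of all genes fell). The median log2 changes of the list were 0.27 and -0.34 in that order, beside 0.25 and -0.26 for all tested genes. The largest increases in cKO were those of Ftl1, the ferritin light chain (406 to 671 TPM, log2 change 0.73), Hmox1, which degrades haem (0.67), Fth1, the ferritin heavy chain (0.63), the iron transporter Slc11a2 (0.50) and the haem synthesis enzyme Uros (0.38), with limma adjusted p-values from 0.00102 to 0.0247. After centring 1 of the 7 was called, Ftl1 at 0.48 (limma adjusted p = 0.00630). In dKO against cKO, the genes that fell included Slc11a2 (-0.59), Ftl1 (-0.46), Fech (-0.45) and Uros (-0.43), and 0 genes of the list were called after centring. Of 7 tested red cell membrane and enzyme genes, Gypc and Add2 rose in cKO against control (0.38 each) and Add2 and Prdx2 fell in dKO against cKO (-0.56 and -0.26), where Prdx2 was 0.0089 after centring. Only Add2 in dKO against cKO was called after centring (-0.29; limma adjusted p = 0.0369; 3.83% of all genes lower).

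Among 11 other globin and globin-like genes, Cygb and Hbb-bh0 passed the mean of 1 TPM. Cygb, cytoglobin, made outside red cells, rose by 0.37 in cKO against control (limma adjusted p = 0.0266; 34.3% of all genes rose). It fell by 0.49 in dKO against cKO (limma adjusted p = 0.00630; 38.8% of all genes fell), and neither change was called after centring. Hbb-bh0, a pseudogene of the beta cluster, was listed at 0 in 4 of 12 libraries and reached 12.1 TPM. Hbb-bh3 and Hba-ps3 were listed at 0 in every library.

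Markers of other cells in the tissue moved between genotypes, and their part in the globin values was not tested. The 13 endothelial markers, of the cells that line vessels, summed to 21.8 to 29.2 TPM in control, 37.0 to 53.0 in cKO and 26.5 to 38.7 in dKO. Of the 12 tested, 10 rose in cKO against control (34.3% of all genes) and 4 after centring (3.72% of all genes), led by Kdr (0.81), Ramp2 (0.71), Egfl7 (0.68), Cldn5 (0.67) and Esam (0.64), with limma adjusted p-values from 0.00154 to 0.0101. In dKO against control 0 were called, and 2 were higher after centring (3.74% of all genes). In dKO against cKO 3 of 12 fell, where 38.8% of all genes did, and 0 after centring. The 7 pericyte markers, of the cells that wrap small vessels, summed to 4.09 to 5.92 TPM in control, 7.98 to 10.7 in cKO and 5.50 to 6.96 in dKO. Of the 3 tested, Rgs5 (0.75) and Kcnj8 (0.49) rose in cKO against control (Rgs5 alone after centring), and Rgs5 fell in dKO against cKO (-0.49; not called after centring). The 14 microglia and macrophage markers summed to 17.7 to 21.8 TPM in control, 61.6 to 92.1 in cKO and 20.5 to 29.3 in dKO. Of 11 tested, 10 rose in cKO against control as deposited (34.3% of all genes) and 10 after centring (3.72%), led by C1qa (2.07), C1qb (1.94), Fcrls (1.89), C1qc (1.87) and Aif1 (1.62), and all 11 fell in dKO against cKO (38.8% of all genes), 9 of them after centring (3.83%). The median log2 change in cKO against control was 0.60 for the endothelial, 0.49 for the pericyte and 1.23 for the microglia and macrophage markers, beside 0.25 for all tested genes. In these 3 lists the sum of every cKO library lay above that of every control library, and no marker was at 0 in all libraries. The sums were also separate for the haem and iron, platelet and white cell, meningeal fibroblast and ventral telencephalon lists. They overlapped for the erythroid factor, red cell membrane, other globin and pallial lists. Of all tested genes, 33.7% had cKO and control groups that did not overlap. The globin sums of cKO (2502 to 3464 TPM) and control (2048 to 3107 TPM) overlapped.

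Platelet and white cell markers were low, with 9 of 10 under a mean of 1 TPM and sums of 2.50 to 2.91 TPM in control, 5.94 to 10.1 in cKO and 3.26 to 8.14 in dKO. Pf4, the tested one, rose in cKO against control (1.17; limma adjusted p = 0.00280). The 9 meningeal fibroblast markers summed to 23.5 to 40.8 TPM in control, 42.8 to 51.2 in cKO and 37.1 to 54.1 in dKO. Of the 4 tested, Col3a1 (0.71), Dcn (0.69) and Lum (0.61) rose in cKO against control (34.3% of all genes), Col3a1 (0.80) rose in dKO against control (1.79%), and Dcn fell in dKO against cKO (-0.38; 38.8%). After centring Dcn was called in cKO against control, and Col3a1 and Lum in dKO against control. The tissue label was matched by its markers: all 10 pallial markers had a mean of at least 1 TPM, with Emx1 at 4.88 to 11.2 TPM, while 8 of 9 ventral telencephalon markers were under 1 TPM. Eomes (-0.57) and Neurod6 (-0.63), of pallial progenitors and neurons, fell in dKO against control and in dKO against cKO (-0.40 and -0.83). After centring these 2 and Emx1 were called lower in dKO against control, and Emx1, Eomes and Sox2 in cKO against control, where 4.69% and 2.96% of all genes were lower. The tested ventral marker, Dlx1, rose in cKO against control (0.58) and fell in dKO against cKO (-0.53), and was not called after centring.

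Tested genes outside the 8 described here were ranked by Pearson's r with the mean of the 4 adult-type globins across libraries, after subtracting genotype means. The 10 most alike were Kmt5b (r = 0.896), 4833420G17Rik, Tbc1d19, Gm12258, Ints4, Rassf1, Arl15, Mkln1, Slc30a9 and Rabgap1 (r = 0.837). For the 3 embryonic-type globins they were Ndufb7 (r = 0.964), Sdc2, Nsl1, Gm26175, Hist1h2ap, Mgst1, Msantd3, Scrn2, Ubxn1 and Hist3h2a (r = 0.896). These r are over the same 12 libraries and are given with no test. Slc4a1, the anion exchanger, ranked 147 (r = 0.687) for the adult-type mean and 136 (r = 0.746) for the embryonic-type mean, and Gypc, another red cell membrane gene, ranked 5357 (r = 0.210) and 528 (r = 0.622). With Hbb-bt left out of the adult-type mean, a choice made after its values were seen, Alas2 ranked 8 (r = 0.866), Slc4a1 ranked 10 (r = 0.865) and Gypc ranked 3506 (r = 0.289). Alas2 was kept in this ranking but was left out of those above, so its rank cannot be set against them.

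The DNA around the annotated starts was searched for letters that globin factors are known to bind, in RefSeq promoters of build GRCm38.p6 (250 bases before and 50 after the start), which held 7 of the 8 genes. CACCC, the letters of the Klf1 site, was found on either strand in 7 of 7, as in 57.5% of 32851 promoters. CCAAT was in 5 of 7 (all but Hba-x and Alas2; 37.4% of promoters), and AGATAA or TGATAA, forms of the GATA site, in 6 of 7 (all but Hbb-bt; 18.6%), both searched on both strands. ATAAA on the gene strand was in 3 of 7 (26.0%). The windows of 30 bases around the CACCC nearest to the start show how alike the adult alpha promoters are. Capitals mark CACCC and, where it falls in the window, CCAAT.
Hba-a1 (chr11:32283608-32283637, plus strand): tgtcCACCCtgcctggaggacacgcccttg
Hba-a2 (chr11:32296425-32296454, plus strand): tgtcCACCCtgcctggaggacacgcccttg
Hba-x (chr11:32276501-32276530, plus strand): gctcCACCCtgcaagccccctcccctctcc
Hbb-bt (chr7:103813987-103814016, minus strand): gtaaCACCCtggcattggCCAATctgctca
Hbb-bs (chr7:103827993-103828022, minus strand): gccaCACCCtggtaagggCCAATctgctca
Hbb-y (chr7:103853293-103853322, minus strand): gctcCACCCatgaggaccacgggtcaggct

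RefSeq and GENCODE place some starts differently: by the GENCODE M21 limits given above, the windows of Hba-a1, Hba-x and Hbb-bs lie inside the gene and that of Hbb-bt in part. The windows of Hba-a1 and Hba-a2 are the same, and over 250 bases upstream these promoters were 97.6% identical. Hbb-bs and Hbb-bt, which differ by 1 coding base, were 68.4% identical over the same length. Embryonic and adult promoters of a cluster were 45.4% to 46.0% identical, within the 40.9% to 48.1% found between promoters of different clusters.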

How the data were processed

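RNA of E13.5 pallium was measured in 12 libraries, 4 per genotype, grouped by genotype label. The deposited tables give TPM per gene symbol, a unit inferred from the values, since each of the authors' tables sums to 1000000 with fractional values. Per the submitters' processing notes, HISAT2 and mm10 were used; quantifier and annotation are not given in the sources used here. TPM keeps no depth, so no depth per library is given.

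From these, log2(TPM + 1) was fitted across all genes with limma 3.58.1 (R 4.3.3; lmFit, eBayes with trend, the 3 groups in 1 fit, no covariates), for the 11764 genes whose mean reached 1 TPM. P-values were adjusted by Benjamini-Hochberg over all of these at 0.05. On simulated data for cKO against control (11764 genes, 200 changed by 1 on the log2 scale) 185 were recovered with 9 false calls. The simulated noise was independent between genes and had no shift of whole libraries. It therefore gives no rate of false calls where most genes shift together, or of recovery for smaller changes. Shares are ratios of TPM sums per library. Correlations of Alas2 used two-sided exact permutation within genotypes (13824 arrangements). Sequences were aligned with Biopython 1.88.

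The genes and the marker lists (other globins, erythroid factors, haem and iron, red cell membrane, endothelial, pericyte, microglia, platelet and white cell, meningeal, pallial, ventral) were chosen with earlier results of these data known. Named from the lists are up to 5 called genes a list and comparison, by size of change, and 10 most alike genes per globin type; some genes of the lists are not reported here. Alternatives were a pseudocount of 0.1, no filter, a minimum mean of 5 TPM, median-shift centring, quantile normalization, protein-coding rescaling without globins (factors 0.797 to 1.10), sample weights, 2 groups only, a replicate block, and leaving out each library. Libraries with the same replicate number are not stated to be paired. Correlations of same-numbered deviations were -0.0954 to 0.0745, with no other pairs as a reference, so they cannot settle whether libraries were paired. Of 54735 symbols, 54106 matched GENCODE M21.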

Additional observations from a re-analysis of the deposited data

How the results depend on the processing

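The counts of called genes over the whole table moved with the scaling, while the 8 genes were called under few settings, named with the results. For cKO against control (4163 genes in limma), the count was 1900 at a mean of at least 5 TPM, 810 after quantile normalization, 786 after centring and 1559 after protein-coding rescaling. For dKO against control (610) it was 294, 1029, 992 and 1081 in that order, and 1579 with sample weights. For dKO against cKO (4636) it was 2220, 798, 698 and 1140. With the replicate block the counts were 2979, 409 and 3608, and the block called 0 of the 8 genes in every comparison, as without it. Leaving out 1 library gave 2468 to 4325, 333 to 571 and 3082 to 4851. The count was over 1.5 times lower without control 2 (2675), cKO 2 (2468) or cKO 4 (2526) for cKO against control, without control 3 (354) or control 4 (333) for dKO against control, and without cKO 2 (3082) or cKO 4 (3089) for dKO against cKO.

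Signs of small changes turned. In cKO against control, Hbb-bh1 was -0.013 after quantile normalization and -0.067 after centring, and Hbb-y -0.040 after centring. In dKO against control, sample weights gave 0.14 for Hbb-bs, 0.013 for Hbb-bh1, 0.0094 for Hbb-y and 0.27 for Alas2. Hbb-y was 0.11, 0.013 and 0.063 and Alas2 0.0027, 0.019 and 0.052 after quantile normalization, centring and rescaling, and Alas2 was 0.0014 with a pseudocount of 0.1. In dKO against cKO, Hba-x was 0.042, 0.074 and 0.023 under those scalings and 0.014 with sample weights, and Hbb-y was 0.053 after centring and 0.0072 after rescaling. Leaving out 1 library gave -0.33 to 0.12 for Hbb-bh1, -0.13 to 0.11 for Hbb-y and -0.11 to 0.12 for Alas2 in dKO against control, and -0.39 to 0.0017 for Hba-x in dKO against cKO. Alas2 lies below a mean of 5 TPM and has no value there. The cause was not tested.

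For Alas2, leaving out 1 library (chosen after seeing the data) gave r of 0.771 to 0.951 with Hba-a1, 0.796 to 0.922 with Hba-a2, 0.531 to 0.859 with Hbb-bs, -0.185 to 0.531 with Hbb-y and -0.491 to 0.152 with Hbb-bt. Without the 2 libraries farthest from its median, r was 0.711 and 0.726 with Hba-a1 and Hba-a2. Without centring on genotype, r with Hbb-bs was 0.758 (permutation, adjusted p = 0.00803). With a pseudocount of 1 on each gene the mean embryonic beta-type share in control was 73.5% and the alpha-type share 7.60%.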

Other observations

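Within each of the 3 genotypes and 8 genes, and for the shares described, no library lay beyond Dixon's limit for 4 values (0 of 36 groups, with 1.8 expected by chance). Hbb-bt in dKO, where 3 libraries were high and 1 low, was among these groups.

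Around the beta-globin cluster, 4 other genes within 1000000 bases of Hbb-bt passed the mean of 1 TPM: Dnajc19-ps, Gm27995, Hbb-bh0 and Trim12c. None was called in dKO against control in limma, with adjusted p-values from 0.478 to 0.837 (5.19% of all genes were), and Trim12c alone was called in dKO against cKO (adjusted p = 0.0278), where 39.4% of all genes were. The genes whose values after subtracting genotype means were most like Hbb-bt alone, a ranking added after its values were seen, began with Mcmdc2 (r = 0.920), Mrpl48 (0.917) and Adamts18 (0.914) over 12 libraries. Alas2, Slc4a1 and Bpgm, the red cell enzyme that makes bisphosphoglycerate, ranked 8, 10 and 28 by likeness to the adult-type globins without Hbb-bt. Gypc, of the red cell membrane, ranked 3506. With Hbb-bt kept in the mean, Bpgm ranked 443 (r = 0.592), Slc4a1 147 and Gypc 5357, in a ranking that left out Alas2. Ranks of the other tested red cell membrane and enzyme genes are not reported here.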
